A study of Homo sapiens with 6 samples.

Results

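The genes described here are 10 chemokines, most of which attract neutrophils or monocytes. Their transcripts were measured in U87-2M1 glioma cells with a miR-10b decoy and with a control decoy. The genes were chosen by gene symbol (CXCL1, CXCL2, CXCL3, CXCL5, CXCL6, CXCL8, CCL2, CCL7, CCL20 and CXCL16) from 19775 genes that had a probe set of their own. The 10 genes had 15 probe sets, and the probe set with the highest mean over the 6 arrays stood for each gene. Of these genes, 7 passed the filter on low signals and were tested among 13842 genes, and CXCL6, CCL7 and CXCL16 did not pass it. A gene passed when its mean normalized signal over all 6 arrays reached 15.6, the 30th percentile, called the filter level below.

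Both groups were U87-2M1 cells at passage 4, a subline of the human glioma line U87 taken for its invasiveness from a lung metastasis assay in animals and then grown in culture. One group of 3 arrays came from cells transduced with a baculoviral vector carrying a miR-10b decoy, a transcript meant to bind this microRNA, and the other 3 from cells with the same kind of vector carrying a control decoy. All cells were kept in hypoxia, and both groups carried a baculovirus vector. U87-2M1 is a single subline, and the labels leave unsaid whether the 3 samples of a group were separate cultures. The p-values therefore speak of the spread among these 6 arrays, and that spread could be technical.

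Chemokines are small secreted proteins that guide white blood cells along a gradient through receptors on those cells. The CXC chemokines CXCL1, CXCL2, CXCL3, CXCL5, CXCL6 and CXCL8 act on CXCR2, and CXCL6 and CXCL8 also on CXCR1, and they draw neutrophils. CCL2 and CCL7 draw monocytes through CCR2, CCL20 acts through CCR6 on lymphocytes and dendritic cells, and CXCL16 is a membrane-bound ligand of CXCR6 that proteases release. Many of these genes are induced by interleukin-1 and TNF through the transcription factor NF-kB, and glioma cells are a known source of CXCL8 and CCL2.

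The 6 CXC genes that act on CXCR2 lie close together on chromosome 4, where protein-coding genes follow each other in the order CXCL8, CXCL6, PF4V1, CXCL1, PF4, PPBP, CXCL5, CXCL3 and CXCL2 in RefSeq. CCL2 and CCL7 are neighbours on chromosome 17, CXCL16 lies elsewhere on that chromosome, and CCL20 is on chromosome 2. A promoter sequence from RefSeq (GRCh38.p14) was at hand for 8 of the 10 genes. The 250 bases before the gene start were searched on both strands for the NF-kB motif GGAATTTCC, which was found in all 6 chromosome 4 genes and in 0.413% of 35116 promoters. The stretches are shown because these 6 genes share the motif and lie in 1 cluster, while their signals did not all differ between the groups. Capitals mark every match to GGAATTTCC or to the wider form GGNNTTTCC, which includes it.
CXCL5, chr4:73998723-73998787, minus strand: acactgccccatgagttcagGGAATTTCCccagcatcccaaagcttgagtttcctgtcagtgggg
CXCL6, chr4:73836569-73836633, plus strand: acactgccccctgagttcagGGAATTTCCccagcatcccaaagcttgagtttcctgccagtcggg
CXCL1, chr4:73869295-73869359, plus strand: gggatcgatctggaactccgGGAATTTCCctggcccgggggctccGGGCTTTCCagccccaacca
CXCL2, chr4:74099228-74099292, minus strand: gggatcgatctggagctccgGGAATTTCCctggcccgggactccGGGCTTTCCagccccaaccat
CXCL3, chr4:74038723-74038787, minus strand: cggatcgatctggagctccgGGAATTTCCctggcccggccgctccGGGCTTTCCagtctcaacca
CXCL8, chr4:73740458-73740522, plus strand: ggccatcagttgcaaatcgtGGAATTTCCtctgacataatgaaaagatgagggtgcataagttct
CCL20, chr2:227813743-227813807, plus strand: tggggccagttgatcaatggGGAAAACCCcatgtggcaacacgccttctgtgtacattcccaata

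The first base of GGAATTTCC stood 78 bases before the start of CXCL1 and CXCL3, 77 before CXCL2, 89 before CXCL6, 90 before CXCL5 and 91 before CXCL8. Aligned on the motif without gaps, the CXCL5 and CXCL6 windows were identical at 62 of 65 bases and the CXCL1 and CXCL3 windows at 59 of 65. The CXCL5 window matched that of CXCL1 at 28 of 65 bases and that of CXCL8 at 19 of 65. All these counts include the bases of the motif itself, which match because the windows were aligned on it. CXCL1, CXCL2 and CXCL3 each held a further match to GGNNTTTCC at 53 bases before the start, and CCL20 held its only match to this form 79 bases before the start, on the opposite strand. The wider form occurred in 7 of the 8 promoters, CCL7 being the exception, and in 5.48% of all promoters. The AP-1 motif TGANTCA was found before CXCL8 and CCL7 and in 6.57% of all promoters, and the TATA box TATAAA before CXCL8, CCL7 and CCL20 and in 10.7%. A match is a run of letters and not evidence of binding.

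**Figure D1:**
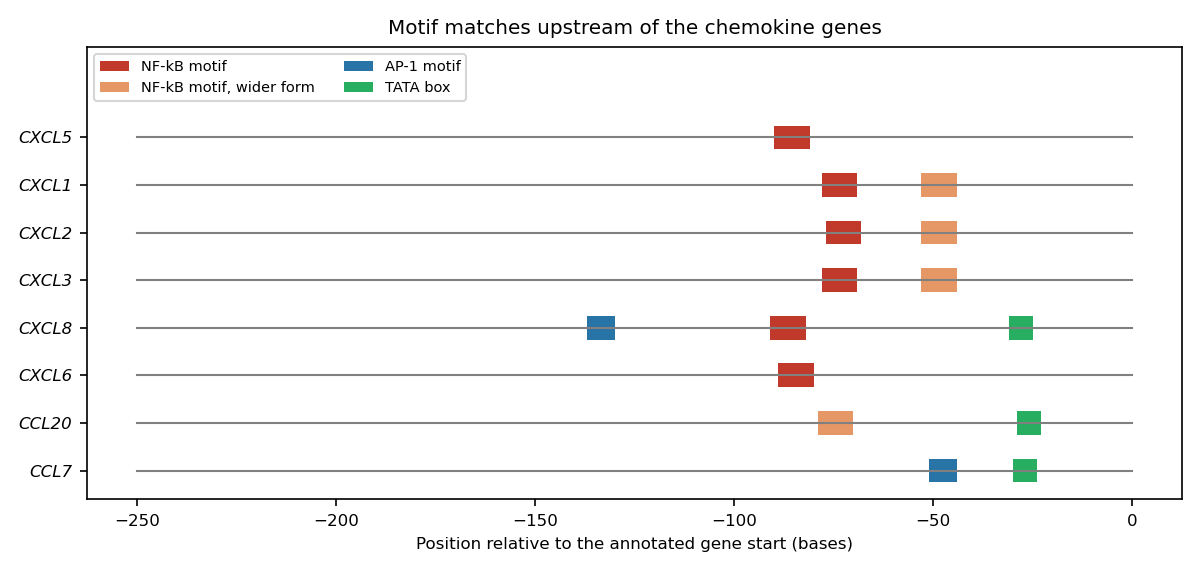
Motif matches in the 250 bases upstream of 8 chemokine genes, with the position relative to the annotated gene start on the x axis and 1 gene per line. The NF-kB motif lies between 91 and 77 bases before the start in all 6 genes of the chromosome 4 cluster.

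Array signals were compared on a common scale, because control replicate 3 was brighter as deposited. With 2% of the probe sets trimmed from each end, its signals averaged 192, against 155 to 163 on the other 5 arrays. All signals below are quantile-normalized linear signals unless stated to be as deposited, changes are log2(signal + 7) differences of miR-10b decoy minus control decoy with their standard error (SE), and adjusted p-values come from limma with Benjamini-Hochberg adjustment over all 13842 genes at a threshold of 0.05. The median change of all tested genes was -0.02 on this scale and -0.14 with the signals as deposited. The control genes GAPDH and ACTB had changes of -0.02 (adjusted p = 0.657) and -0.10 (adjusted p = 0.108).

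Among the 10 chemokines, CXCL5, CXCL1, CXCL2, CXCL3 and CCL20 were higher with the miR-10b decoy, CCL2 was lower, CXCL8 did not pass the threshold and the other 3 were not tested. Over all tested genes 16.6% were called higher and 17.3% lower, so a call by itself was common. The groups did not overlap for 4 chemokines with the decoy arrays above and for CCL2 with the decoy arrays below, which held for 22.4% and 24% of all tested genes. With the signals as deposited, 2 chemokines lay wholly above and 1 wholly below, as did 11% and 29.2% of all tested genes. On that scale 4 chemokines were called higher and 1 lower, while 7.9% of all tested genes were called higher and 18.4% lower. The ratio of the 3' to the 5' actin probe set, which rises as RNA is degraded, was 8.54 ± 1.77 with the miR-10b decoy and 5.73 ± 0.474 with the control decoy (SD, n = 3 each), and that of GAPDH was 0.943 ± 0.007 and 0.945 ± 0.019. The actin ratios of the groups did not overlap, at 7.36 to 10.6 with the miR-10b decoy and 5.27 to 6.22 with the control decoy. Those of GAPDH overlapped. The part of the actin ratio in the chemokine values was not tested. In these bulk samples, a change in the number of cells that make a transcript and a change in RNA per cell cannot be told apart.

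**Figure D2:**
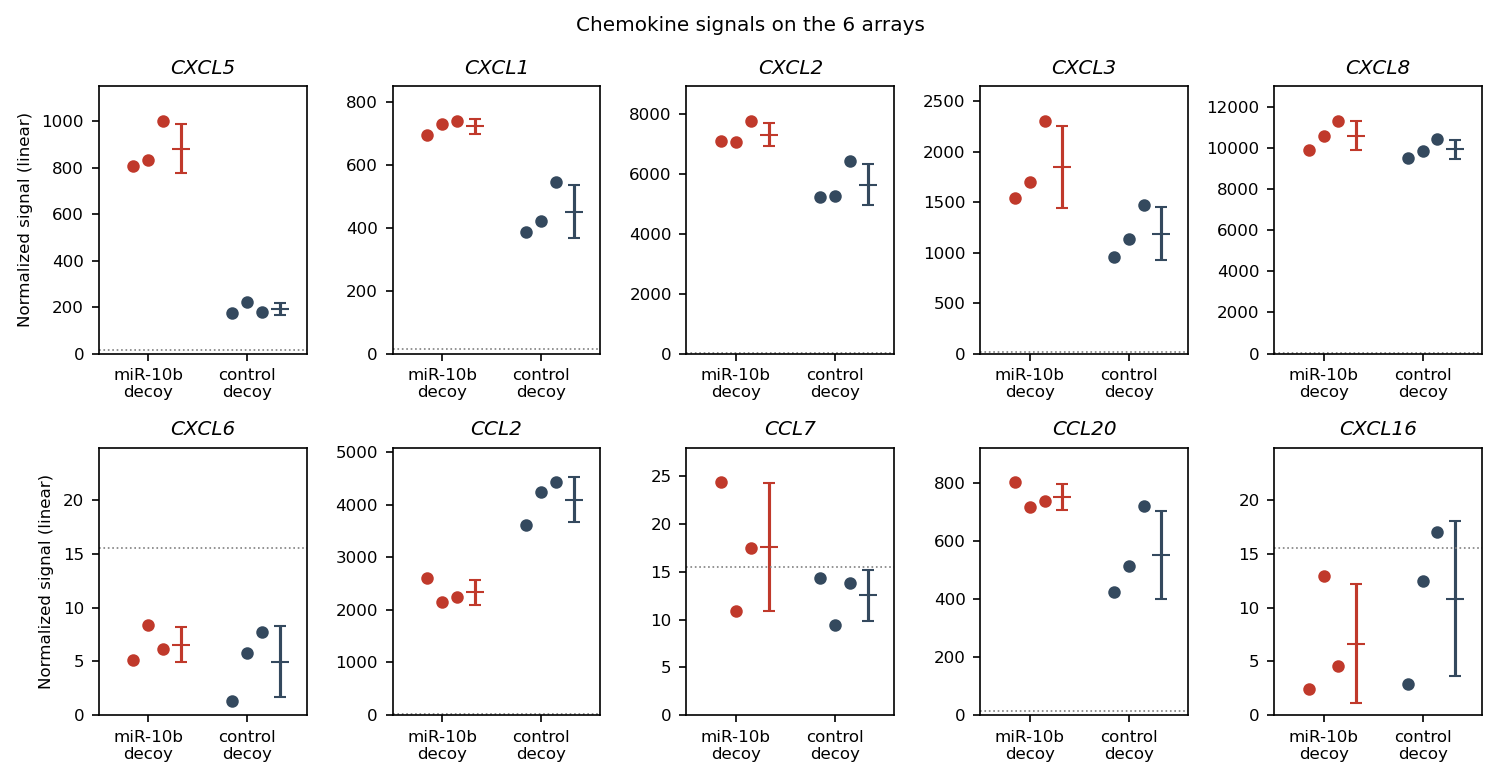
Normalized linear signal of each chemokine on each array (points), with the mean and SD beside them, miR-10b decoy in red at the left and control decoy in dark blue at the right (n = 3 each). The dotted line is the filter level of 15.6. CXCL5 decoy arrays lie at 806 to 1001 and its control arrays at 174 to 222, while CCL2 decoy arrays lie below its control arrays.

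CXCL5, a CXCR2 ligand that attracts neutrophils, had the largest change of the 7 tested chemokines. Its signal was 806, 835 and 1001 with the miR-10b decoy, against 174, 222 and 180.4 with the control decoy. Every decoy array lay above every control array, with group means of 881 ± 105 and 192 ± 26.1 (SD, n = 3 each). The log2 change was 2.16 (SE 0.11, 95% interval 1.92 to 2.40, adjusted p = 2.3e-07), or 4.46-fold, and 14 of the 13842 tested genes had a larger rise. The probe set carries the suffix x_at, which marks possible cross-hybridisation.

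The other CXCL5 probe sets were checks on this value. Probe set 215101_s_at had signals of 108, 149 and 204 with the miR-10b decoy, against 41.0, 39.5 and 32.4 with the control decoy. Its groups did not overlap either, and its log2 change was 1.81 (SE 0.20, adjusted p = 9.7e-05 with every probe set fitted by itself). The third, 207852_at, had 18.1, 15.01 and 10.4 with the miR-10b decoy, all above the control arrays, whose highest signal was 8.26. It lay under the filter level on 2 decoy arrays and on all 3 control arrays and was not tested. Averaging the probe sets gave CXCL5 a change of 1.499, and its call held in all 17 alternatives tried.

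The region upstream of CXCL5 is printed whole because this gene had the largest change of the 7 tested. It holds a single match to the NF-kB motif, in capitals, and no match to TATAAA or TGANTCA.
CXCL5, chr4:73998678-73998927 (GRCh38.p14), minus strand: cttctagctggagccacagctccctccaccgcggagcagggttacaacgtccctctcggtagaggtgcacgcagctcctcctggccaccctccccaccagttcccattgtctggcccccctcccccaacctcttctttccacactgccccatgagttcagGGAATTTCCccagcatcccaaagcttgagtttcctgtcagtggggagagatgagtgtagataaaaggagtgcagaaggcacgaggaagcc

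CXCL1, CXCL2 and CXCL3 are closely related CXCR2 ligands, and how far the probes of one detect the transcripts of another was not tested. CXCL1 had signals of 694, 731 and 739 with the miR-10b decoy, against 386, 420.3 and 546 with the control decoy. The groups did not overlap, and the control arrays were more spread than the decoy arrays. The log2 change of CXCL1 was 0.69 (SE 0.11, 95% interval 0.45 to 0.92, adjusted p = 5.9e-04). Its call ended in 1 of 17 alternatives, with per-gene variances and no moderation (adjusted p = 0.051).

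CXCL3 had signals of 1539, 1697 and 2306 with the miR-10b decoy, against 958, 1134 and 1474 with the control decoy. The decoy arrays lay above the control arrays by a narrow gap, and with the signals as deposited control replicate 3, at 1753, lay above decoy replicates 1 and 2. The log2 change of CXCL3 was 0.63 (SE 0.16, 95% interval 0.29 to 0.97, adjusted p = 0.0082). Its call ended without the intensity trend (adjusted p = 0.077) and without moderation (adjusted p = 0.160).

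CXCL2 had signals of 7086, 7064 and 7757 with the miR-10b decoy, against 5211, 5264 and 6425 with the control decoy. The groups did not overlap on the normalized scale, but as deposited control replicate 3, at 7596, lay above all 3 decoy arrays. The log2 change was 0.38 (SE 0.07, 95% interval 0.22 to 0.54, adjusted p = 0.0018), on a probe set with the suffix x_at. The other CXCL2 probe sets were far dimmer. Probe set 1569203_at had means of 37.1 with the miR-10b decoy and 45.2 with the control decoy, and 230101_at 22.8 and 23.2. Their changes were -0.26 (SE 0.21, adjusted p = 0.421) and 0.01 (SE 0.29, adjusted p = 0.988), each fitted by itself. The CXCL2 call was lost on averaging it with these dim probe sets (0.04, adjusted p = 0.805). It was also lost with the signals as deposited (0.25, adjusted p = 0.134) and without moderation (adjusted p = 0.084).

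CXCL8, also known as interleukin-8, had the highest mean signal of the 10 representative probe sets. It had 9889.7, 10548 and 11301 with the miR-10b decoy, against 9509, 9836 and 10419.6 with the control decoy. The groups overlapped, 2 of the 3 decoy arrays lying above all control arrays. The log2 change was 0.09 (SE 0.05, 95% interval -0.02 to 0.20, adjusted p = 0.188), on a probe set with the suffix x_at. With the signals as deposited the change was -0.06 (adjusted p = 0.760).

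The CXCL8 signal stood near the top of the arrays, whose highest deposited signals were between 13339 and 16485. A dimmer CXCL8 probe set, 211506_s_at, had 3603, 6387 and 7139 with the miR-10b decoy, against 4773, 4933 and 5728 with the control decoy. Its decoy arrays lay on both sides of the control arrays, and its log2 change was 0.09 (SE 0.19, adjusted p = 0.760, fitted by itself). The genes outside the chemokines whose normalized log2 values were most like those of CXCL8 over the 6 arrays were GSPT2 (Pearson r = 0.99), BTG3, PMS1, MOB1B and MTF2 (r between 0.977 and 0.981). These r describe 6 arrays in 2 groups and were picked as the highest of all tested genes.

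CXCL6, which acts on CXCR1 and CXCR2 and whose upstream window differs from that of CXCL5 by only a few bases, stood near background. Its signal was 5.14, 8.33 and 6.10 with the miR-10b decoy, against 1.32, 5.79 and 7.76 with the control decoy. All 6 arrays lay under the filter level and the groups overlapped, so no fold is given. With no filter it did not pass the threshold (adjusted p = 0.663).

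**Figure D3:**
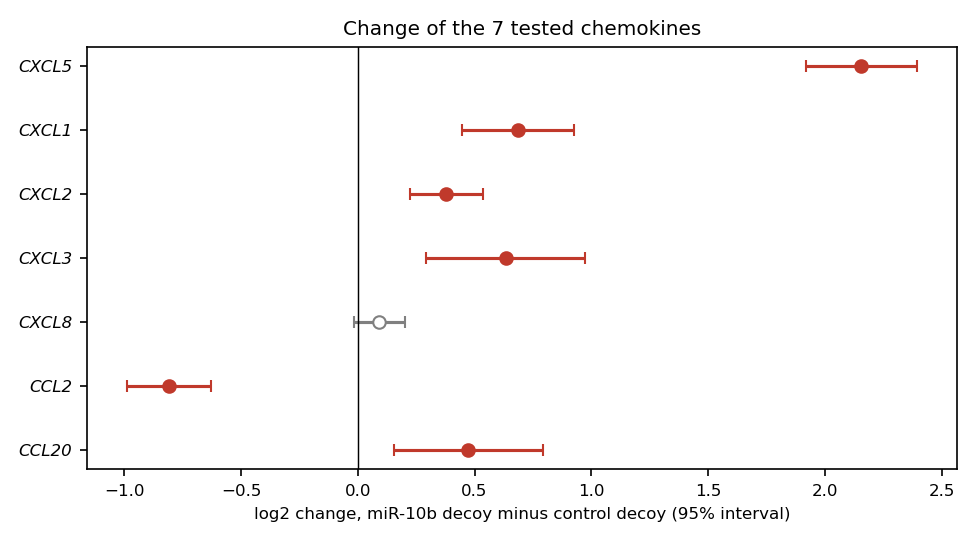
The log2 change of each tested chemokine, miR-10b decoy minus control decoy, with its 95% interval from limma (n = 3 arrays per group). Filled red points passed the threshold and the open grey point did not. CXCL5 stands at 2.16 and CCL2 at -0.81, with the other 5 between 0.09 and 0.69.

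CCL2, which draws monocytes through CCR2 and is also called monocyte chemoattractant protein, was the chemokine that fell. Its signal was 2607, 2156 and 2235 with the miR-10b decoy, against 3619.7, 4247 and 4421 with the control decoy. Every decoy array lay below every control array on the normalized scale and as deposited, with normalized means of 2333 ± 241 and 4096 ± 422 (SD, n = 3 each). The log2 change was -0.81 (SE 0.08, 95% interval -0.99 to -0.63, adjusted p = 2.6e-05), and 2.32% of the tested genes had a lower value. CCL2 has a single probe set here, and its call held in all 17 alternatives, with values between -0.96 and -0.75.

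CCL7, the neighbour of CCL2 and a ligand of the monocyte receptors CCR1 and CCR2, had 24.4, 10.9 and 17.5 with the miR-10b decoy, against 14.3, 9.43 and 13.8 with the control decoy. The groups overlapped, and all 3 control arrays and 1 decoy array lay under the filter level. With no filter it did not pass the threshold (adjusted p = 0.538).

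CCL20, the ligand of CCR6, had 803, 718 and 739.9 with the miR-10b decoy, against 425, 513 and 722 with the control decoy. The groups overlapped, since control replicate 3 lay above decoy replicate 2. The log2 change was 0.47 (SE 0.15, 95% interval 0.15 to 0.79, adjusted p = 0.026). Its call ended in 8 of 17 alternatives, among them leaving out control replicate 1 (0.30, adjusted p = 0.091), control replicate 2 (0.44, adjusted p = 0.084), or either of 2 decoy arrays, replicate 1 (0.43, adjusted p = 0.086) and replicate 3 (0.49, adjusted p = 0.058). Without control replicate 3, the brightest array, the change was 0.68 (adjusted p = 5.5e-04).

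CXCL16, the membrane-bound ligand of CXCR6, had 2.47, 13.0 and 4.53 with the miR-10b decoy, against 2.88, 12.5 and 17.0 with the control decoy. All but 1 control array lay under the filter level, and the groups overlapped. With no filter it did not pass the threshold (adjusted p = 0.608), and no fold is given. The sheddase ADAM10, which releases CXCL16 from the membrane, was lower at -0.43 (SE 0.05), or -0.65 on averaging its probe sets, with 1617, 1541 and 1618 with the miR-10b decoy against 2228, 2069.8 and 2131 with the control decoy.

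The other genes of the chemokine pathway are given by lists, chosen with earlier results of these data known. Their counts stand beside 16.6% called higher and 17.3% lower over all tested genes. With the signals as deposited these shares were 7.9% and 18.4%. Of 13 proteases that cut or release chemokines 12 were tested, and 6 were higher and 3 lower, with a list median of 0.23 against -0.02 for all tested genes. The cathepsin CTSS was higher at 0.70 (SE 0.08), or 0.29 on averaging its probe sets. Of its 2 other tested probe sets, 1 had the opposite sign. The membrane-bound metalloprotease MMP14 was higher at 0.68 (SE 0.08) and the collagenase MMP1 at 0.66 (SE 0.05). Each had its 3 decoy arrays above its 3 control arrays.

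Among the receptors and decoy receptors of chemokines, 5 of 14 were tested, 2 of them higher and 1 lower, with a median of -0.18. The higher ACKR3 and the lower CXCR4 passed the filter through a single group, so their adjusted p-values are given as description only. The counts and the median of this list include both, and so are not set against the shares over all tested genes. Leaving them aside, CCR1 was called higher, and CCR2 and ACKR2 did not pass the threshold. CCR1, a receptor of CCL7 and other CC chemokines, had 500.1, 478 and 487 with the miR-10b decoy, against 163, 158 and 193 with the control decoy, a log2 change of 1.48 (SE 0.09, adjusted p = 1.1e-06). ACKR3, an atypical receptor that takes up CXCL12, had 46.6, 36.7 and 46.1 with the miR-10b decoy, against 2.37, 11.5 and 7.59 with the control decoy. All its control arrays lay under the filter level, so it passed the filter only through the decoy arrays. The mean of the ACKR3 decoy arrays stood 2.21-fold above the filter level. Its call (adjusted p = 0.0011) was lost on averaging its probe sets (adjusted p = 0.081). CXCR4, the signalling receptor of CXCL12, had 3.55, 14.99 and 2.81 with the miR-10b decoy, all under the filter level, against 18.9, 26.3 and 26.9 with the control decoy. CXCR4 passed the filter only through its control arrays, whose mean stood 1.37-fold above the filter level. Its call (adjusted p = 0.037) ended in 7 alternatives, 5 of which left out an array (adjusted p from 0.059 to 0.111 in those). CXCR1 and CXCR2, through which the neutrophil chemokines act, lay under the filter level on all 6 arrays, at 2.56 ± 0.68 and 1.12 ± 0.56 with the miR-10b decoy and 2.95 ± 0.64 and 2.23 ± 1.28 with the control decoy (SD, n = 3 each).

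Of 27 other chemokines 25 had a probe set and 6 were tested, and 0 passed the threshold in limma, against 1 higher and 0 lower at an unadjusted p under 0.05 and 0 with no moderation. PPBP, a platelet-derived CXCR2 ligand and the neighbour of CXCL5, had 32.7 ± 17.8 with the miR-10b decoy and 9.61 ± 6.87 with the control decoy (SD, n = 3 each), with overlapping groups. All its control arrays lay under the filter level, so it passed the filter only through 2 decoy arrays, and it missed the threshold (adjusted p = 0.057) except in 4 alternatives. CCL4, CCL5 and CCL28 had 0.40 (adjusted p = 0.236), 0.49 (adjusted p = 0.287) and -0.26 (adjusted p = 0.629).

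The next list held the cytokines that induce these chemokines, with their receptors and adaptors. Of 19 tested, 5 were higher and 1 lower, with a median of -1.7e-04. Over all tested genes 16.6% were called higher and 17.3% lower. IL1B had 10683, 10659 and 11114 with the miR-10b decoy, against 7506, 7768 and 8603 with the control decoy, a log2 change of 0.44 (SE 0.05, adjusted p = 4.2e-05). IL1A, the other interleukin-1 agonist, was lower, with 277, 309 and 353 with the miR-10b decoy against 492, 441 and 518 with the control decoy, a log2 change of -0.62 (SE 0.10, adjusted p = 6.4e-04). The receptor antagonist IL1RN was higher at 1.70 (SE 0.16) and the interleukin-36 agonist IL36G at 1.26 (SE 0.22), or 0.82 with an offset of 32. The IL1B call ended with the signals as deposited (adjusted p = 0.079), and those of IL1A (-0.02) and IL1RN (0.47) on averaging their probe sets.

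Of 15 tested NF-kB subunits, kinases and inhibitors, 4 were higher and 1 lower, with a median of -0.03. With the signals as deposited 1 was higher and 2 lower, against 7.9% and 18.4% of all tested genes. The subunit RELA had 766, 718 and 850.2 with the miR-10b decoy, against 565, 548 and 584 with the control decoy, a log2 change of 0.45 (SE 0.08, adjusted p = 7.9e-04). The inhibitor NFKBIA, itself an NF-kB target, was higher at 0.41 (SE 0.07) and RELB at 0.38 (SE 0.10), and the kinase IKBKB was lower at -0.27 (SE 0.09). The NFKBIA call ended with the signals as deposited and on averaging its probe sets (0.03). That of RELB ended in 4 alternatives, among them the signals as deposited and leaving out control replicate 1. IKBKB lost its call in 9 alternatives and took the other sign on averaging its probe sets (0.23, adjusted p = 0.193).

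Among AP-1 and C/EBP factors, which act beside NF-kB at chemokine promoters, 4 of 9 were higher and the other 5 did not pass, with a median of 0.06. FOSL2 was higher at 0.72 (SE 0.06), or 0.28 on averaging its probe sets, JUN at 0.61 (SE 0.05), JUND at 0.23 (SE 0.05) and CEBPB at 0.23 (SE 0.03). For JUND and FOSL2, 2 other probe sets each had the opposite sign. The CEBPB call ended only with the signals as deposited. That of JUND ended in 4 alternatives, with the signals as deposited, averaged probe sets, no intensity trend and no moderation. Factors that bind AU-rich elements or otherwise set the decay of chemokine transcripts were higher in 3 of 12 cases and did not pass in the other 9, with a median of 0.12. DUSP1, a phosphatase that turns off the p38 kinase, was higher at 0.80 (SE 0.04), though 1 of its 2 other tested probe sets had the opposite sign. RC3H2, a roquin protein that marks transcripts for decay, was higher at 0.52 (SE 0.10) and ZFP36L2, which binds AU-rich elements, at 0.37 (SE 0.10), while the decay factor KHSRP, not past the threshold, had 0.16 (adjusted p = 0.088). The ZFP36L2 call was lost in 5 alternatives, among them the signals as deposited (adjusted p = 0.094), averaged probe sets (0.10, adjusted p = 0.682) and leaving out control replicate 2 (adjusted p = 0.068), and that of RC3H2 without moderation (adjusted p = 0.058), its value being 0.28 on averaging.

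Of 16 tested inflammatory genes that are often induced together with these chemokines, 10 were higher and 2 lower, with a median of 0.19. CSF3, the growth factor of neutrophils, had 2752, 2564 and 2863 with the miR-10b decoy, against 895, 886 and 925 with the control decoy, a log2 change of 1.59 (SE 0.06). The iron-binding lipocalin LCN2 was higher at 2.39 (SE 0.18), NAMPT, an enzyme of NAD synthesis, at 1.02 (SE 0.06) and complement C3 at 0.79 (SE 0.05). With the signals as deposited 7 of this list were higher and 2 lower.

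**Figure D4:**
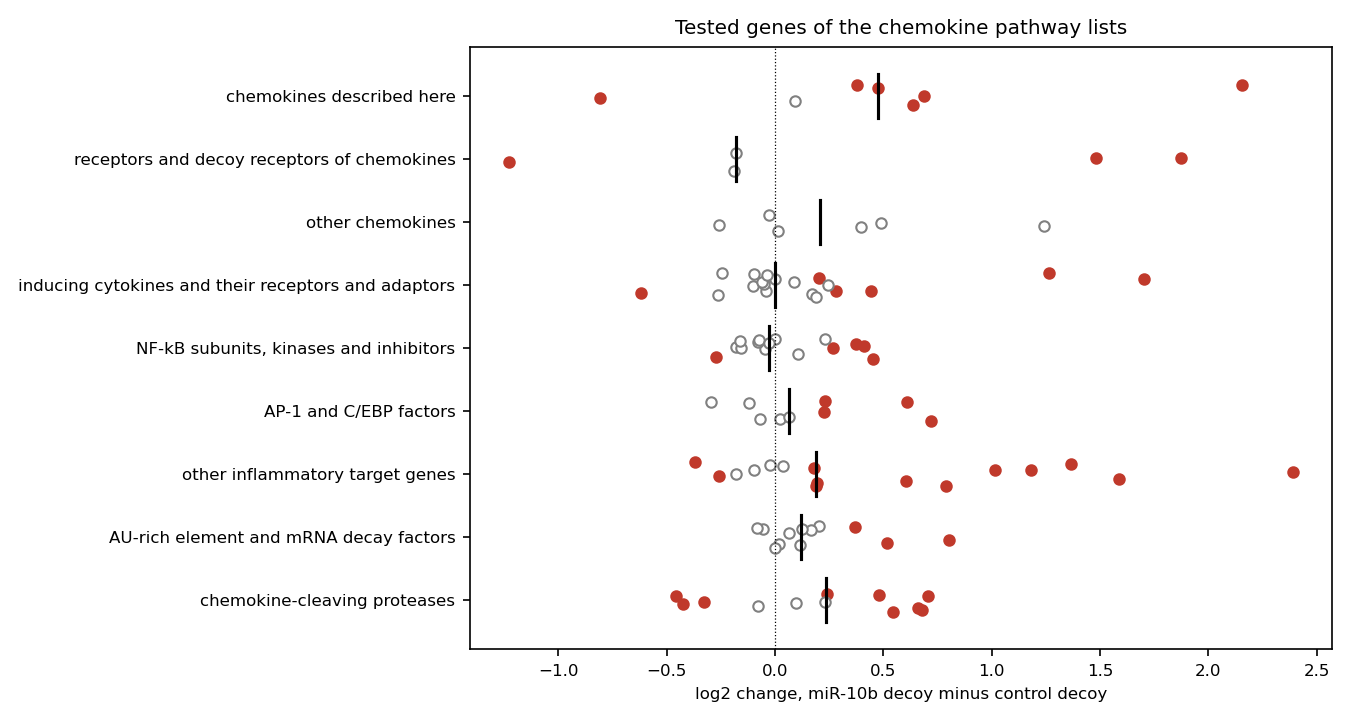
The log2 change, miR-10b decoy minus control decoy, of every tested gene of each list, with filled red points past the threshold, open grey points not past it and a black bar at the list median. The chemokines described here have a median of 0.47 over 7 tested genes, against -0.02 for all tested genes.

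The arrays were checked for the labelled cell type and for white blood cells, which carry the receptors of these chemokines. Of the 9 glioma and mesenchymal culture markers 7 were tested, and NES (-0.38, adjusted p = 0.0079) and FN1 (-0.13, adjusted p = 0.030) were lower while the other 5 did not pass. The NES call was lost in 2 alternatives and that of FN1 in 10. The 1 other tested NES probe set had the opposite sign, as did 2 of the 6 others of FN1. VIM had 9932 ± 100 with the miR-10b decoy and 9937 ± 102 with the control decoy (SD, n = 3 each), and GFAP lay under the filter level on all arrays. Of 14 white blood cell markers with a probe set 6 were tested and 0 passed the threshold in limma (1 higher and 0 lower at an unadjusted p under 0.05, and 0 with no moderation), and their summed signal was 265 to 301 with the miR-10b decoy and 206 to 268 with the control decoy. The defining markers PTPRC and CD14 lay under the filter level on all 6 arrays, at 7.21 ± 3.84 and 3.10 ± 3.02 with the miR-10b decoy and 5.22 ± 3.77 and 1.92 ± 1.21 with the control decoy (SD, n = 3 each). The tested white blood cell markers follow as mean signals, miR-10b decoy first. They were 50.2 and 52.3 for CSF1R, 55.6 and 51.9 for S100A8, and 35.2 and 25.9 for ITGAX. The others were S100A9 (30.5 and 16.3), CSF3R (33.5 and 26.3) and ITGAM (22.6 and 30.5). For S100A9 (adjusted p = 0.088 in limma) and ITGAX every decoy array lay above every control array. Of 6 endothelial markers 3 were tested and 2 were lower, PECAM1 at -0.40 and TEK at -0.55. The PECAM1 call was lost in 2 alternatives, among them leaving out control replicate 2, and that of TEK in 6, among them leaving out control replicate 1 or 2 or miR-10b decoy replicate 3. Of the 3 other tested PECAM1 probe sets, 1 had the opposite sign. CDH5, VWF and CLDN5 lay under the filter level on all arrays. Of 5 epithelial markers, KRT8 (0.14, adjusted p = 0.566) and KRT18 (0.19, adjusted p = 0.657) were tested.

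**Figure D5:**
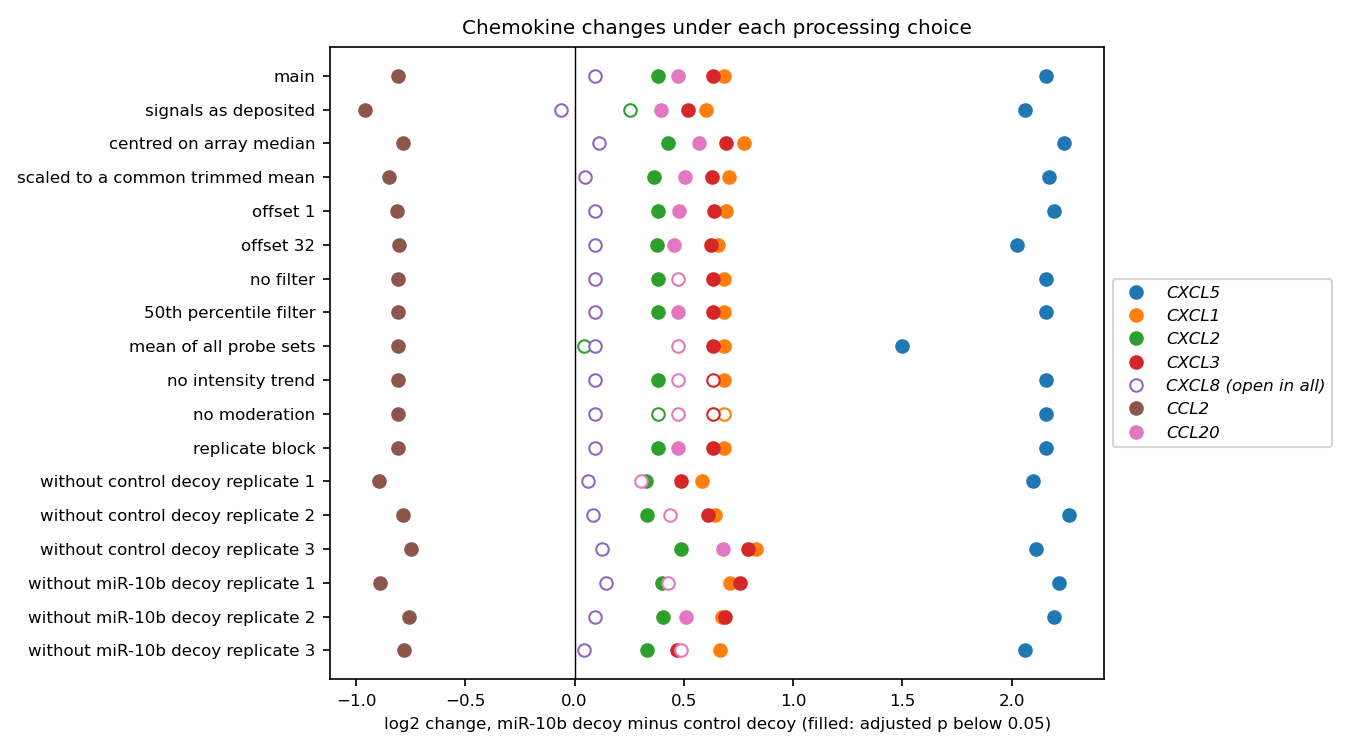
The log2 change of the 7 tested chemokines, miR-10b decoy minus control decoy, under the values as reported (main) and 17 alternatives, 1 per line, with filled points where the adjusted p was below 0.05. CXCL5 and CCL2 are filled on every line, CXCL8 on none, and CCL20 is open in 8 alternatives.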

How the data were processed

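The authors deposited 1 table of linear signal intensities for 54675 probe sets on 6 arrays, and MAS5 is the tool that the submitters' processing notes name. The sources used here do not give its version or target value. Per the labels, biotinylated cRNA was made from 0.25 µg of total RNA. Platform annotation gave 1 gene symbol to 41097 probe sets, 41091 without control probe sets, of which 41037 matched a RefSeq gene (GRCh38.p14) by Entrez identifier and 0 symbols changed.

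Signals were quantile normalized over all probe sets, since the deposited arrays differed in brightness, and turned into log2(signal + 7), which understates changes of dim genes. Genes were tested with limma (version 3.58.1, R 4.3.3; lmFit, eBayes with intensity trend, two-sided), with 7.60 prior and 4 residual degrees of freedom. An exact permutation test of 3 against 3 arrays cannot go below p = 0.1. Where a group lay wholly under the filter level, the fold is that of the other group's mean log2(signal + 7) against that level. The level is a percentile of gene means and not a measured detection limit. Named genes were the 10 members, the 4 tested genes with the lowest p in each list, GAPDH, ACTB, and genes singled out for their role or their likeness to CXCL8. Genes named outside this rule were chosen after their values were seen. The members and lists were chosen with earlier results of these data known.

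Same-numbered arrays did not deviate together (correlations of -0.03 to 0.03), so the numbers were not treated as pairs. The number of arrays limits the precision. Alternatives were other scalings, offsets, filters, probe set rules, variance models, the replicate block and each array left out. Fitting every probe set by itself was added after the data were seen.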

Additional observations from a re-analysis of the deposited data

How the results depend on the processing

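Over all tested genes, the miR-10b decoy gave 2304 higher and 2392 lower calls. These counts moved by over 1.5 times to 1094 higher with the signals as deposited (and 2542 lower), to 1467 higher and 1568 lower with the mean of all probe sets, and to 1456 higher and 1375 lower with no moderation. Centring on the array median gave 2869 higher and 1731 lower. Leaving out 1 array gave 1877 to 2153 higher and 1819 to 2141 lower. The chemokines called higher numbered 5, and 3 with the mean of all probe sets, 3 without the intensity trend and 1 without moderation. With 1 array left out they numbered 4 to 5, and 1 was lower each time. The replicate block left 5 higher and 1 lower, and 2225 higher and 2328 lower over all genes, though the numbers were not found to pair the arrays. CXCL8 took the other sign with the signals as deposited (-0.062). So did, with the mean of all probe sets, ACKR2 (0.54), IKBKB (0.23) and KHSRP (-0.0087). The cause of these shifts was not tested. Of 119 comparisons of the 7 tested chemokines with an alternative, 104 kept their direction and their side of the threshold, 14 lost the call and 1 changed sign. CXCL6, CCL7 and CXCL16 were too dim to test, and CXCL8 was near the top of the signal scale.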
